A study of Mus musculus with 8 samples.

Results

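Oxidative phosphorylation makes most of the ATP of a respiring cell at the inner membrane of the mitochondrion. Complexes I, III and IV pass electrons from NADH to oxygen and pump protons, complex II feeds in electrons from succinate, and complex V, the ATP synthase, lets the protons flow back. Most subunits are encoded in the nucleus, and some subunits of complex IV exist as a ubiquitous isoform and an isoform restricted to muscle, lung, testis or oxygen-poor tissue. Pluripotent stem cells are known for relying heavily on glycolysis. The nuclear genes of the 5 complexes were chosen by name, as all rows that start with the symbols of the Nduf, Sdh, Uqcr, Cox4 to Cox8 and Atp5 genes. The names matched 85 of 22878 rows. Of these, 35 were assigned to complex I, 4 to complex II, 8 to complex III, 19 to complex IV and 15 to complex V. Ndufa4 and its isoform Ndufa4l2 were counted with complex IV. The other 4 matched rows are not subunits (Cox4nb, Atp5s, Atp5sl and Cox7a2l). Of the 81 subunit genes, 73 are ubiquitous and 8 are tissue-specific isoforms.

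RNA-seq data were collected from 8 libraries of 5 mouse cell lines, which were the embryonic stem cell (ESC) line R1 and 4 lines of secondary induced pluripotent stem cells (iPSCs), named 16-6, 32, S8 and T2. There were 2 libraries for each of R1, 16-6 and 32 but only 1 for S8 and 1 for T2, for which no spread between replicates exists. The iPSC lines were made from adult all-iPSC mice, whose cells carry doxycycline-inducible Oct4, Sox2, c-Myc and Klf4, with doxycycline withdrawn before colonies were picked. Line 16-6 came from hematopoietic progenitors, 32 from adipocyte progenitors, S8 from epidermal cells and T2 from the stomach mucosa, and each origin is represented by 1 line. R1 and the iPSC lines were all grown with LIF on mitomycin C-treated mouse embryonic fibroblasts. The labels call the tissue of every library embryo. All 10 pluripotency markers were detected in every library, with a summed level between 2882 and 5800. A level is the deposited FPKM (fragments per kilobase of transcript and per 1000000 mapped fragments) divided by a common constant of 12725.7. Some single markers ranged more widely, as Zfp42 from 92.9 in T2 to 544 in R1 and Nanog from 80.8 in S8 to 327 in 32. Tdgf1 ran only from 421 in 16-6 to 663 in R1. The 10 fibroblast markers summed to 935 and 961 in R1, 2982 and 2966 in 16-6, 242 and 232 in 32, 608 in S8 and 872 in T2. The part of feeder RNA in the results was not tested. In such bulk libraries, fewer cells of a type and less RNA per cell cannot be told apart. The values rested on 15.5 to 16.7 times 1000000 fragments per library, as estimated from the confidence limits of the files. The study lists far more sequenced and uniquely mapped reads for S8 and T2 than for the other libraries, which these estimates do not show, and the part of this difference in the results was not tested.

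The members were short and abundant transcripts. Their median transcript length was 861 bases against 2950 bases for the tested genes, and 58.8% of the members but 6.69% of the tested genes were shorter than 1000 bases. The median member was at a level between 147 and 196 in each library. A gene was tested when its level reached 1 in at least 1 library, which held for 13693 rows and 83 of the 85 members. Cox6a2 and Cox8b, the isoforms of heart and skeletal muscle, were not tested. Cox8b was listed at 0 in 7 libraries and at 0.474 in replicate 2 of 16-6, where it rested on 1 fragment, and Cox6a2 did not exceed 0.269. The gene with the highest level, as the mean of the 5 lines, was Atp5b, the catalytic beta subunit of the ATP synthase (chromosome 10, 127520363 to 127527444, mm9), with 1360.4. The highest genes of the other complexes were Cox8a with 861, Uqcr11 with 639.6, Ndufa7 with 461 and Sdhd with 136. The lowest ubiquitous gene of complex I was Ndufa11 with 28.7. The lowest of complexes II, III and V were Sdhc with 76.1, Uqcrfs1 with 90.5 and Atp5e with 167. These levels are per length of transcript.

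The largest differences from R1 were found among the tissue-specific isoforms of complex IV, whereas most ubiquitous subunits differed by less. In the mean of the iPSC lines, all 6 tested tissue-specific isoforms were called lower, with a median log2 difference of -0.98. Line by line there were exceptions, as Cox7a1 was not called in 32, Cox7b2 in S8, and Cox8c in 32 and S8. Calls were made at a Benjamini-Hochberg adjusted p below 0.05 in limma, over all tested genes. Among all tested genes, 65% were called in this comparison, 29.9% higher and 35.2% lower. Of the 73 ubiquitous subunits, 28 were called higher and 12 lower, with a median of 0.11, and the median over all tested genes was -0.03. Over all members the balance of 29 higher and 19 lower turned to 18 and 27 with the libraries set to equal totals. Of all tested genes, 23.3% were then called higher and 40.2% lower. After quantile normalization the members had 12 higher and 29 lower, beside 33.3% and 31.4% of all tested genes. Cox7b2 and Cox8c, 2 of the 6 isoforms, rested on at most 12 fragments per library, and their calls were lost after quantile normalization. The other 4 are described first.

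Ndufa4l2 (chromosome 10, 126951995 to 126954210, mm9) is a paralog of Ndufa4 that is known to be induced at low oxygen. Its level was 49.9 and 49.8 in R1, 2.04 and 2.90 in 16-6, 1.35 and 2.70 in 32, 16.1 in S8 and 7.95 in T2. The R1 libraries were far above all the iPSC libraries, and S8 and T2 lay between R1 and the other lines. These levels rested on 641 and 638 fragments in R1 and on 16 to 191 fragments in the iPSC libraries. On the log2(level + 1) scale, on which all differences are given, Ndufa4l2 differed from R1 by -3.88 ± 0.24 (SE) in 16-6 and by -4.11 ± 0.24 in 32, with limma adjusted p-values of 0.00034 and 0.000213. In S8 and T2, the differences were -1.57 ± 0.29 and -2.51 ± 0.29 (limma adjusted p = 0.00644 and 0.00193). The 2.98-fold to 17.2-fold differences on this scale understate those of the levels. Its ubiquitous counterpart Ndufa4 was at 436 and 488 in R1, 441 and 485 in 16-6, 531 and 506 in 32, 483 in S8 and 353 in T2. Only in T2 was Ndufa4 called, with -0.38 ± 0.10 (limma adjusted p = 0.0217). As a share of the sum of the 2 isoforms, Ndufa4l2 took 9.77% in R1, 0.527% in 16-6, 0.392% in 32, 3.22% in S8 and 2.20% in T2. The locus of Ndufa4l2 overlaps that of Shmt2 by 16 bases, and Shmt2 was at 86.3 to 135.

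Cox4i2 (chromosome 2, 152579909 to 152590773, mm9) is the oxygen-responsive lung isoform of subunit 4. It was at 9.97 and 8.40 in R1, 2.61 and 1.03 in 16-6, 1.65 and 1.90 in 32, 1.37 in S8 and 0.746 in T2. Both R1 libraries were above all others, with 67 and 59 fragments against 5 to 18. The difference from R1 was -1.91 ± 0.28 in 16-6, -1.87 ± 0.28 in 32, -2.10 ± 0.34 in S8 and -2.54 ± 0.34 in T2, and the limma adjusted p lay between 0.00296 and 0.00401. The ubiquitous Cox4i1 was at 501 and 632 in R1 and at 485 to 758 in the iPSC libraries, which overlapped R1. Cox4i1 was called in 32 only, with 0.39 ± 0.12 (limma adjusted p = 0.0348).

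Cox7a1 (chromosome 7, 30969190 to 30971049, mm9), the isoform of heart, skeletal muscle and brown fat, split the iPSC lines. It was at 60.3 and 59.9 in R1 and at 63.1 and 59.2 in 32, but at 23.5 and 20.9 in 16-6, 21.9 in S8 and 18.0 in T2. R1 and 32 overlapped, and the other lines lay below both of them. The difference from R1 was -1.40 ± 0.07 in 16-6, -1.41 ± 0.08 in S8 and -1.69 ± 0.08 in T2 (limma adjusted p = 0.000189, 0.000176 and 0.00023). In 32 it was 0.02 ± 0.07 (limma adjusted p = 0.788), and the direct comparison of 16-6 with 32 gave -1.42 ± 0.07 (limma adjusted p = 8.89e-05). The ubiquitous Cox7a2 was at 149 and 168 in R1, 167 and 180 in 16-6, 228 and 196 in 32, 262 in S8 and 185 in T2. It was called higher in 32 with 0.41 ± 0.10 and in S8 with 0.72 ± 0.12 (limma adjusted p = 0.0174 and 0.00438). Cox7a1 took 27.5% of the sum of the 2 isoforms in R1, 22.5% in 32, 11.4% in 16-6, 7.72% in S8 and 8.86% in T2.

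Cox6b2 (chromosome 7, 4703396 to 4704696, mm9), known as the testis isoform of subunit 6B, was the most abundant of the tissue-specific isoforms. It was at 170.2 and 161 in R1, 89.3 and 93.7 in 16-6, 123 and 105 in 32, 97.3 in S8 and 70.5 in T2. The R1 libraries lay above all iPSC libraries. The difference from R1 was -0.85 ± 0.08 in 16-6, -0.54 ± 0.08 in 32, -0.76 ± 0.10 in S8 and -1.22 ± 0.10 in T2, with limma adjusted p-values between 0.000824 and 0.00414. The ubiquitous Cox6b1 was at 719 and 701 in R1, 571 and 597 in 16-6, 867 and 629 in 32, 721 in S8 and 534 in T2, and was called in no line. Cox6b2 took 18.9% of the pair in R1, 13.5% in 16-6, 13.4% in 32, 11.9% in S8 and 11.7% in T2.

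The remaining isoforms were close to the limit of detection. Cox7b2, of the testis, was at 1.90 and 2.30 in R1, 1.02 and 1.30 in 16-6, 1.47 and 1.16 in 32, 2.51 in S8 and 0.812 in T2, on 4 to 12 fragments. S8 lay above R1 and the other iPSC libraries below it. It was called lower in 16-6, 32 and T2, by -0.52 ± 0.12, -0.42 ± 0.12 and -0.77 ± 0.15, and gave 0.18 ± 0.15 in S8 (limma adjusted p = 0.0169, 0.0297, 0.00882 and 0.319). Cox8c, also of the testis, was at 2.27 and 1.08 in R1 and at 0.283 to 1.54 elsewhere, on 1 to 8 fragments. It was called lower in 16-6 (-0.87 ± 0.24) and T2 (-1.03 ± 0.30), with limma adjusted p-values of 0.0315 and 0.0338, and both calls were lost under several settings. A change of 1 fragment is a large part of such values.

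Markers of spermatids, striated muscle, adipose cells and fibroblasts were measured beside these isoforms. No markers of lung or of low oxygen, the settings named for Cox4i2 and Ndufa4l2, were among the lists. None of the 6 spermatid markers reached a level of 1 in any library, and their sum did not exceed 0.732. The 8 striated muscle markers summed to 9.01 and 10.2 in R1, 50.1 and 52.8 in 16-6, 20.6 and 18.4 in 32, 26.9 in S8 and 25.4 in T2. Acta1 alone was at 1.93 and 1.21 in R1, 39.2 and 42.4 in 16-6, 9.22 and 7.94 in 32, 11.3 in S8 and 12.7 in T2. Actc1 was at 1.27 and 1.21 in R1 and at 6.18 to 7.87 in the iPSC libraries. Tnni3 was at 3.09 and 4.06 in R1, 1.66 and 1.99 in 16-6, 2.93 and 2.62 in 32, 4.56 in S8 and 1.93 in T2. Ckm and Myh7 did not exceed 0.664 in any library, and Myh6, Myl2 and Tnnt2 did not exceed 1.42. Of the 4 adipose markers only Fabp4 reached 1, and the adipose sum was 10.2 and 10.4 in R1 and at most 0.999 elsewhere. Of the 10 fibroblast markers, Col3a1, Dcn and Lum were highest in R1, with 217 and 204 for Dcn, against 32.9 and 33.3 in 16-6, 0.605 and 0.890 in 32, 11.1 in S8 and 11.02 in T2. The other 7 were highest in 16-6, with 966 and 968 for Acta2, against 68.7 and 65.5 in R1, 77.6 and 78.0 in 32, 156 in S8 and 210 in T2. Whether the cells that gave these transcripts contributed to the isoforms was not tested.

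**Figure D1:**
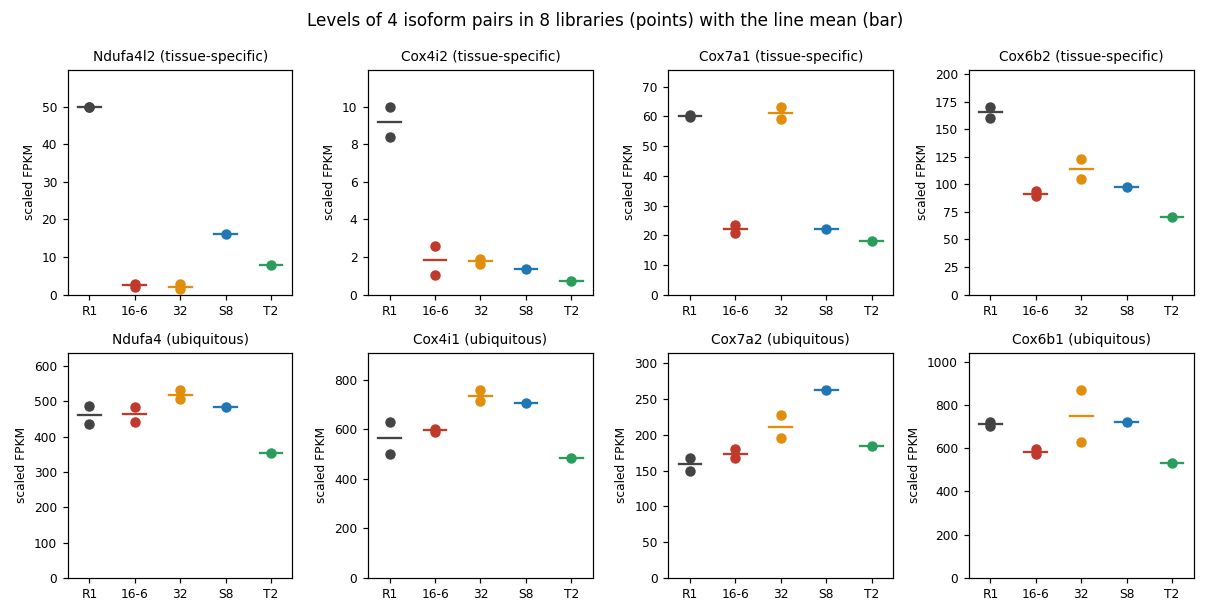
Levels (scaled FPKM, vertical axes from 0) of 4 tissue-specific isoforms in the upper row and of their ubiquitous counterparts in the lower row, by line, with 1 point per library and a bar at the mean of the line. Ndufa4l2, Cox4i2 and Cox6b2 are highest in both R1 libraries, Cox7a1 is at 59.2 to 63.1 in R1 and 32 and at 18.0 to 23.5 in the other lines, and the ubiquitous genes vary less.

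Short motifs that are known from genes of the respiratory chain were searched in the promoters, among them the core of the sites of ETS factors such as GABP. Promoter windows of 300 bases were taken from RefSeq (GRCm38.p6) and found for 69 of the 85 members, in 75 windows. The letters CGGAAG, on either strand, stood in 28 of the 75 windows (37.3%) and in 16.9% of all 32851 promoter windows. They stood in 28 of 67 windows of ubiquitous subunits (41.8%) and in 0 of 4 windows of tissue-specific isoforms. The NRF1 motif, GCGCA followed directly by TGCGC, stood in 6.67% of the member windows and in 0.971% of all windows, and the YY1 core ATGGCG in 29.3% and 8.93%. The NRF1 motif stood in 5 of 67 windows of ubiquitous subunits and 0 of 4 of tissue-specific isoforms, and the YY1 core in 19 of 67 (28.4%) and 1 of 4 (25%). With 4 windows of tissue-specific isoforms, no difference between the classes of isoform can be read from these counts. The YY1 core ends and the ETS core begins with CG, and the YY1 core ends and the NRF1 motif begins with GCG, so that matches can share letters, and shared matches were not counted. A match is a description of the sequence and no evidence of binding. The pairs Cox6b1 and Cox6b2 and Cox7a2 and Cox7a1 are shown as the pairs of abundant isoforms described above, with the ETS core in capitals and each window written along the strand of its gene. Cox6b1 lies at chr7:30626065-30626364 (minus strand), Cox6b2 at chr7:4753045-4753344 (minus strand), Cox7a2 at chr9:79759804-79760103 (minus strand) and Cox7a1 at chr7:30183921-30184220 (plus strand).
Cox6b1: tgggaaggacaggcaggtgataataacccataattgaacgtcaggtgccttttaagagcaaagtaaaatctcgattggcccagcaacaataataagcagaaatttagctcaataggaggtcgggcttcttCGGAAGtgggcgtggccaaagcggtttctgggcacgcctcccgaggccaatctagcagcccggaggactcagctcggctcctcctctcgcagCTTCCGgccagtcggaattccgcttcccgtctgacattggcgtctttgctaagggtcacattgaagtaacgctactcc
Cox6b2: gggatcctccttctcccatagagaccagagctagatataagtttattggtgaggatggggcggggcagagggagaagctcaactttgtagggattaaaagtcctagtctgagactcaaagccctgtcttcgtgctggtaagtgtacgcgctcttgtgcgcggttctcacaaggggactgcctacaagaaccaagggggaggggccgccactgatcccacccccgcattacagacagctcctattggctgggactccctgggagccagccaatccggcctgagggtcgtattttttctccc
Cox7a2: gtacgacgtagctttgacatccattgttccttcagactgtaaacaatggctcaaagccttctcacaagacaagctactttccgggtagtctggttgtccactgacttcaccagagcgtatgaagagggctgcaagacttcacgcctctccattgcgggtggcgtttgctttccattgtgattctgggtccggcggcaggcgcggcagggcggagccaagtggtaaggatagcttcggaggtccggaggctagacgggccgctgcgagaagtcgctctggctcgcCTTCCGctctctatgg
Cox7a1: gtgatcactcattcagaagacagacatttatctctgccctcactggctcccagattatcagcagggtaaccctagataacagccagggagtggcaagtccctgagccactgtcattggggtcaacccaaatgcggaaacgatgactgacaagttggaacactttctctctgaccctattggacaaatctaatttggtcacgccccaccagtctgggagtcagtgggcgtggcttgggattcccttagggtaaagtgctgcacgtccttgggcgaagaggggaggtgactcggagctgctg
The Cox6b1 window held the ETS core at 2 positions and the Cox7a2 window at 1 position, and the windows of Cox6b2 and Cox7a1 held none. Windows of Ndufa4l2 and Cox4i2 were not analysed here.

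Line by line, the ubiquitous subunits were called in different directions, and the shares called were below those of all genes. In 16-6, 25 of the 83 tested members were called (30.1%), 9 higher and 16 lower, whereas 55.6% of all tested genes were called, 25.7% higher and 29.9% lower. The median difference of the members was -0.05 and that of all genes -0.03. The 73 ubiquitous subunits were evenly split, with 8 higher and 8 lower and a median of -0.04. Median-of-ratios scaling turned the members to 17 higher and 12 lower, and all tested genes to 33.8% higher and 23.7% lower. Complex I held 6 of the genes called higher and 4 of those called lower. The largest rises were those of Atp5e (0.48 ± 0.14), Ndufb7 (0.40 ± 0.08) and Ndufc2 (0.39 ± 0.07), which encode the epsilon subunit of the ATP synthase and accessory subunits of complex I. Their limma adjusted p-values were 0.0347, 0.012 and 0.00822. Ndufb7 was at 104 and 121 in R1 and at 146 and 151 in 16-6, and Ndufc2 at 123 and 126 in R1 and at 154 and 174 in 16-6, with no overlap. The count fell to 10 without replicate 1 of 16-6 and to 15 without its replicate 2.

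In line 32, the ubiquitous subunits were mostly higher than in R1 as scaled here, but not at equal library totals or after quantile normalization. Of the members, 31 were called higher and 8 lower, with a median of 0.20, beside 28.6% and 32.9% of all tested genes (61.5% in either direction) and a median of -0.02. Of the ubiquitous subunits, 30 were called higher and 3 lower, and 66 of 73 had a positive difference. Complex V had 8 of its genes called higher, and all 15 of its genes were above 0. Ndufs8, a core iron-sulfur subunit of complex I, was at 65.2 and 57.8 in R1 and at 104 and 88.7 in 32, and rose by 0.64 ± 0.09 (limma adjusted p = 0.00341). Ndufa12, an accessory subunit of complex I, was at 394 and 306 in R1 and at 522 and 524 in 32 (0.59 ± 0.12, limma adjusted p = 0.0112). Atp5b was at 1263 and 1353 in R1 and at 1572 and 1571 in 32 (0.27 ± 0.06, limma adjusted p = 0.0112). Among the rows that are no subunits, Cox4nb, of the endoplasmic reticulum membrane complex, rose by 0.73 ± 0.07 and Atp5s, a coupling factor, fell by 0.89 ± 0.09 (limma adjusted p = 0.000734 and 0.00111). The direction of the median depended on the scaling of the libraries. The FPKM total of 32 was the largest of all lines, and with every library set to the same total the members had a median of -0.14, with 3 called higher and 27 lower, while the median of all genes shifted to -0.31. Relative to all genes the members were thus 0.17 higher under that scaling and 0.22 higher as reported. They were 0.07 lower after quantile normalization, which left 6 called higher and 14 lower. Called higher and lower were 7.84% and 55.0% of all tested genes at equal totals, and 33.0% and 24.4% after quantile normalization.

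In S8, 37 members were called higher and 15 lower, with a median of 0.20, beside 32.1% and 34.6% of all tested genes (66.7% in either direction). Complex I contributed 18 higher and 6 lower genes and complex V 9 higher and 1 lower. After quantile normalization the median of the members was -0.04 and that of all tested genes 0.01. The members then had 28 higher and 26 lower, beside 33.2% and 32.0% of all tested genes. With the length trend removed they had 30 higher and 22 lower, beside 32.7% and 31.5%. The largest rise was that of Atp5e (chromosome 2, 174286576 to 174289602, mm9). It was at 77.05 and 104 in R1, 125 and 126 in 16-6, 109 and 109 in 32, 306 in S8 and 204 in T2, with S8 and T2 above all other libraries, and differed from R1 by 1.76 ± 0.17 in S8 and by 1.18 ± 0.17 in T2 (limma adjusted p = 0.000684 and 0.00362). Uqcrfs1, the Rieske iron-sulfur protein of complex III, was at 61.4 and 67.7 in R1, 65.1 and 64.0 in 16-6, 69.0 and 64.7 in 32, 133 in S8 and 123 in T2. R1, 16-6 and 32 overlapped, and S8 and T2 were higher by 1.04 ± 0.07 and 0.92 ± 0.07 (limma adjusted p = 0.0003 and 0.000723). Ndufs3, a core subunit of complex I, had the same order, with 67.5 and 76.1 in R1, 77.1 to 83.1 in 16-6 and 32, 139 in S8 and 116 in T2 (0.94 ± 0.08 and 0.68 ± 0.08, limma adjusted p = 0.000554 and 0.00227). Atp5g2 is 1 of 3 genes that encode the same mature c subunit of the ATP synthase. It was at 552 and 617 in R1 and at 1179 in S8, and rose by 1.01 ± 0.18 (limma adjusted p = 0.00558). Of the summed levels of the 3 c-subunit genes, Atp5g2 took 46.5% in R1, 44.8% in 16-6, 42.2% in 32, 51.9% in S8 and 51.2% in T2.

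In T2, the balance was the opposite as scaled here, with 10 members called higher and 32 lower and a median of -0.16. Of all tested genes, 27% were called higher and 30.9% lower (57.9% in either direction). Complex IV held 13 of the 32, among them 7 of its 11 ubiquitous genes. Cox6a1, the ubiquitous isoform of subunit 6A, was at 782 and 765 in R1 and at 397 in T2 (-0.96 ± 0.06, limma adjusted p = 0.000433). Cox7b, an accessory subunit of complex IV (chromosome X, 103211039 to 103217789, mm9), was at 443 and 467 in R1, 433 and 455 in 16-6, 560.4 and 542 in 32, 237 in S8 and 194 in T2. S8 and T2 lay below all other libraries and differed from R1 by -0.94 ± 0.06 and -1.23 ± 0.06 (limma adjusted p = 0.00023 and 0.000243). Uqcr11, a small subunit of complex III, was at 642 and 715 in R1, 442 in S8 and 312 in T2 (-0.61 ± 0.17 and -1.12 ± 0.17, limma adjusted p = 0.0261 and 0.00446). As S8 and T2 had 1 library each, the line and the library cannot be told apart. Scaled to equal totals, the median of the members in T2 was -0.03 and that of all tested genes 0.07. The members then had 24 higher and 27 lower, beside 33.1% and 23.6% of all tested genes. With the length trend removed they had 20 higher and 27 lower, beside 29.1% and 29.4%. After quantile normalization they had 5 higher and 33 lower, beside 29.7% and 28.4%.

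**Figure D2:**
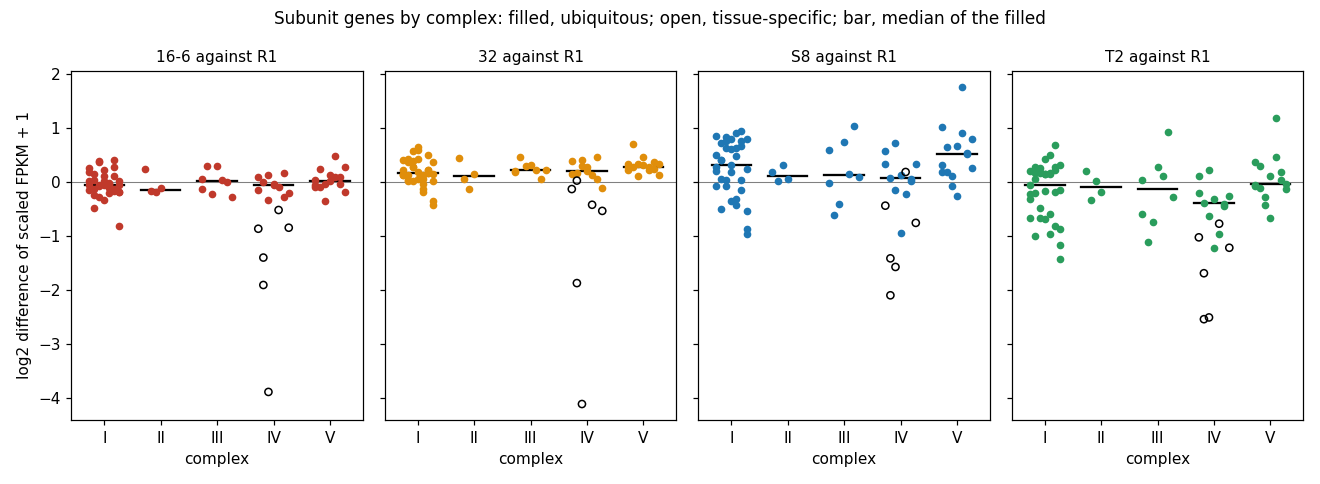
Log2 difference of level + 1 from the mean of R1 for each tested subunit gene, by complex (horizontal axis) and iPSC line (panels). Filled points are ubiquitous genes, open points the 6 tested tissue-specific isoforms of complex IV and bars the median of the filled points; the open points reach -4.11 in 32, whereas filled points stay between -1.43 and 1.76.

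Few members were called in the same direction in every iPSC line. Cox4i2, Cox6b2, Ndufa4l2 and Ndufv3 were called lower in all 4 lines, as were 9.28% of all tested genes, and Sdha was the only member called higher in all 4, as were 7.35% of all genes. Ndufv3, an accessory subunit of the NADH-binding part of complex I (chromosome 17, 31657060 to 31668270, mm9), was at 567 and 598 in R1, 320.3 and 343 in 16-6, 464 and 442 in 32, 317 in S8 and 216 in T2. All iPSC libraries lay below R1, with T2 lowest and 32 nearest to R1. Ndufv3 rested on an estimated 210 fragments in T2, 869 in S8 and at least 1230 in the other libraries. It fell by 0.81 ± 0.06 in 16-6, 0.36 ± 0.06 in 32, 0.87 ± 0.07 in S8 and 1.43 ± 0.07 in T2, with limma adjusted p-values from 0.00023 to 0.00406. Against this, 10 members were called in no iPSC line, and 15 were called higher in 1 line and lower in another, which applied to 9.25% and 23.6% of all genes.

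The 4 genes of complex II, succinate dehydrogenase, differed from R1 by at most 0.43 in any iPSC line. Sdha, the flavoprotein that oxidizes succinate, was at 97.4 and 103 in R1, 117 and 118 in 16-6, 140.1 and 131 in 32, 113 in S8 and 115 in T2, above R1 in every iPSC library. The differences were 0.23 ± 0.05, 0.43 ± 0.05, 0.18 ± 0.06 and 0.20 ± 0.06 in this order of lines (limma adjusted p = 0.0131, 0.00145, 0.0489 and 0.0366). The call in S8 was lost in 8 settings and its sign turned after quantile normalization (-0.07). Sdhb, the iron-sulfur subunit, was at 123 and 133 in R1, 112 and 114 in 16-6, 133 and 133 in 32, 129 in S8 and 101 in T2, and was called lower in 16-6 (-0.18 ± 0.05) and T2 (-0.33 ± 0.06), with limma adjusted p-values of 0.0265 and 0.00624. The membrane anchor Sdhc was called in S8 only (0.31 ± 0.09, limma adjusted p = 0.0319), with 74.3 and 76.4 in R1 and 93.8 in S8. The other anchor, Sdhd, was called in no line against R1, with 139 and 136 in R1 and 120 to 161 elsewhere.

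The moderated F test of limma called 71 of 83 members as different among the 5 lines, beside 88.4% of all tested genes. The 5 largest F values were those of Cox7a1 (249.6), Cox7b (219.6), Ndufv3 (131), Ndufa13 (112) and Ndufa4l2 (97.1), with limma adjusted p-values from 0.000114 to 0.000362. Ndufa13, an accessory subunit of complex I also known as Grim19, was at 75.6 and 79.7 in R1, 75.8 and 74.0 in 16-6, 68.0 and 68.7 in 32, 57.8 in S8 and 39.6 in T2. Its locus overlaps Tssk6, which was at 1.12 to 3.71. In addition to the adjusted p, a difference of at least 2-fold was reached by 3 members in 16-6, 2 in 32, 6 in S8, 10 in T2 and 3 in the mean of the iPSC lines. The shares of all tested genes were 7.11%, 9.77%, 16.7%, 10.5% and 6.41%.

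**Figure D3:**
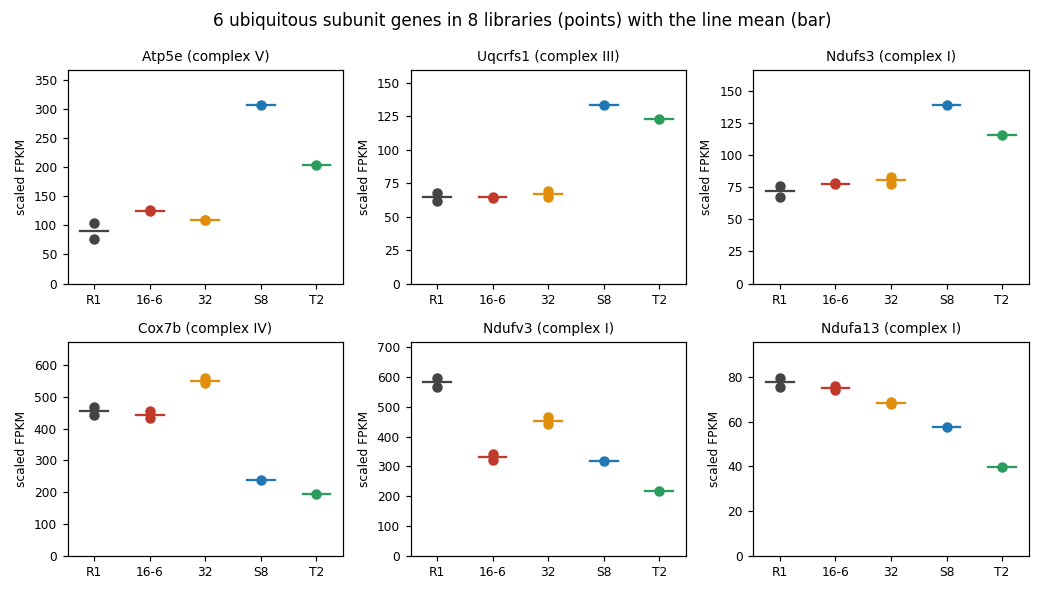
Levels (scaled FPKM, vertical axes from 0) of 6 ubiquitous subunit genes by line, with 1 point per library and a bar at the mean of the line. Atp5e, Uqcrfs1 and Ndufs3 are highest in S8 and T2, Cox7b and Ndufa13 are lowest there, and Ndufv3 is highest in R1.

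The lines 16-6 and 32, both of mesodermal origin and with 2 libraries each, were compared directly. Of the members, 2 were called higher and 40 lower in 16-6 than in 32, with a median of -0.26, beside 27.5% and 32.9% of all tested genes (60.4% in either direction) and a median of -0.06. Both comparisons with R1 share the R1 libraries. The differences between 16-6 and 32 do not use them, but their SE and adjusted p rest on a spread shared over all groups, R1 included. Cox5a, a subunit of complex IV, was at 401 and 382 in R1, 281 and 338 in 16-6 and 496 and 468 in 32. It was called lower than R1 in 16-6 (-0.34 ± 0.10) and higher in 32 (0.30 ± 0.10), and 16-6 differed from 32 by -0.64 ± 0.10 (limma adjusted p = 0.0314, 0.0439 and 0.00342). Ndufb4, an accessory subunit of complex I that was singled out after its values were seen, was at 288 and 282 in R1, 232 and 237 in 16-6 and 359 and 331 in 32, with a difference of -0.55 ± 0.05 between 16-6 and 32 (limma adjusted p = 0.00066). The 3 lines did not overlap for either gene. Such a pair of calls was found for 2 of 83 members and 4.04% of all genes. Atp5s (0.48 ± 0.09) and Ndufa13 (0.13 ± 0.04) were the members called higher in 16-6 (limma adjusted p = 0.00845 and 0.0399). Only 1 member, Cox7a1, passed 2-fold, as did 10.3% of all genes. The direction of the median turned with the scaling, to 0.07 with 18 higher and 4 lower at equal totals, where all genes had a median of 0.21, and was -0.06 after quantile normalization, where all genes had -0.14.

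**Figure D4:**
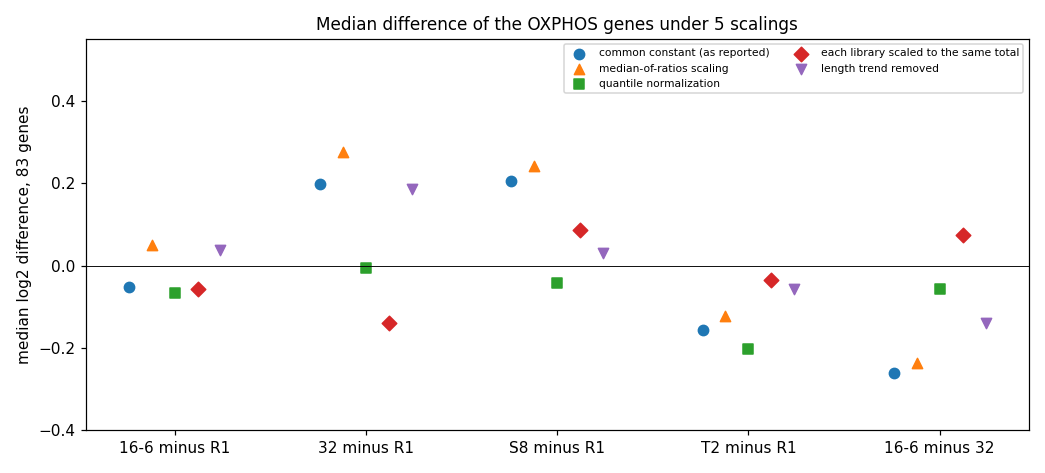
Median log2 difference of level + 1 over the 83 tested members (vertical axis) in 5 comparisons (horizontal axis) under 5 ways of scaling the libraries, shown by symbols. The medians of 32 minus R1 run from -0.14 to 0.28 and those of 16-6 minus 32 from -0.26 to 0.07, whereas T2 minus R1 stays below 0.

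FPKM of short transcripts depend on the size of the sequenced fragments, and the members were therefore set beside other genes of similar length. In S8, the median differences of members from 600 to under 1000 bases and of other genes of that length were 0.32 and 0.27, and those from 1000 to under 2000 bases were 0.17 and 0.25. They were 0.02 and 0.00 under 600 bases, 0.25 and 0.05 from 2000 to under 4000 bases, and 0.79 and -0.37 at 4000 bases and over. In T2, the 21 members under 600 bases had a median of -0.59 and the 182 other genes -0.28, while those from 600 to under 1000 bases had -0.16 and -0.14. In 32, the members were higher in every class, with 0.30 against 0.03 from 600 to under 1000 bases. From 1000 to under 2000 bases they had 0.16 against 0.02. In 16-6, members and other genes differed by at most 0.06 in the 4 classes under 4000 bases. The class of 4000 bases and over held 3 members, with the length taken from the longest annotated transcript. In replicate 1 of R1, Ndufb2, of this class, was at 49.9 on 122 fragments and Atp5g1 at 304 on 1672. Ndufs1, with 2918 bases, was at 67.6 on 894. For their levels Ndufb2 and Atp5g1 thus had fewer fragments than Ndufs1, unlike Cox4nb, which was at 25.4 on 1530. With Ndufb2 and Atp5g1 in it, this class is no comparison at similar length. The same mismatch occurred in a shorter class, as Uqcrq, with 1521 bases, was at 463 on 1542. Uqcrc1, with 1655 bases, was at 188 on 2982. The other classes are thus comparisons at similar annotated length only. After a trend on transcript length had been removed from each library, the median of the members was 0.04 in 16-6, 0.19 in 32, 0.03 in S8 and -0.06 in T2. The medians of all tested genes were then 0.040 in 16-6, 0.024 in 32, -0.007 in S8 and -0.003 in T2. The isoforms Ndufa4l2, Cox4i2, Cox7a1 and Cox6b2 retained each of their calls against R1 under this fit.

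**Figure D5:**
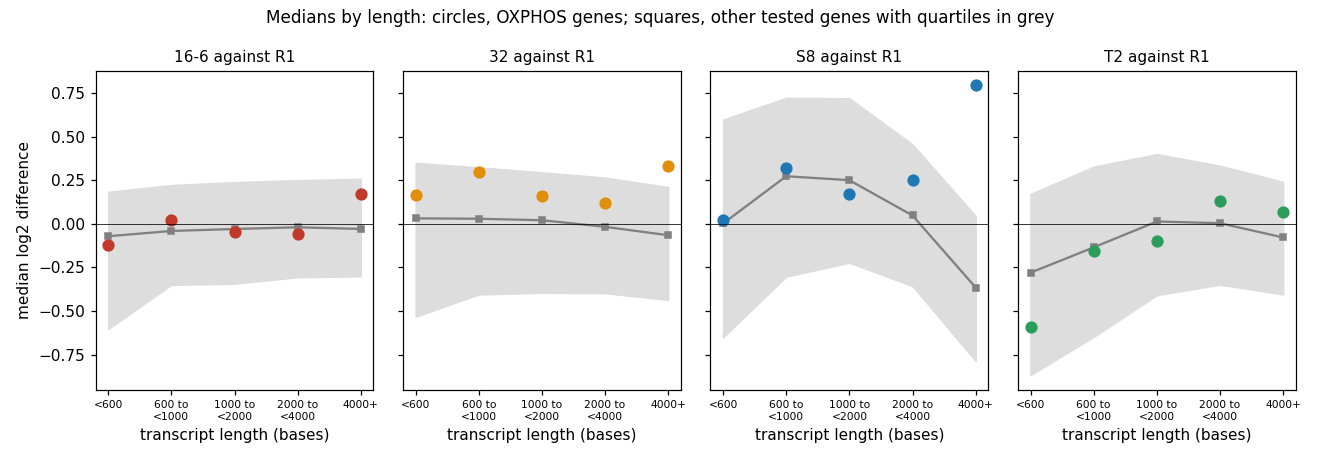
Median log2 difference of level + 1 from R1 (vertical axis) by class of transcript length in bases (horizontal axis), for the members (circles) and the other tested genes (squares, with their quartiles in grey), in 4 panels by iPSC line. In 32 the members lie above the other genes in every class, and in S8 in every class but that from 1000 to under 2000 bases. In all 4 panels they lie within the grey quartiles below 4000 bases.

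S8 and T2 were further set side by side by value, and no test of their difference was fitted. The level was higher in S8 for 82 of 83 members, with a median log2 difference of 0.44, and for 53.4% of all tested genes, with a median of 0.03. By length, this held for 21 of 21 members and 72.5% of other genes under 600 bases, and for 27 of 27 members and 83.8% of other genes from 600 to under 1000 bases. It held for 24 of 24 members and 79.8% of other genes from 1000 to under 2000 bases, and for 7 of 8 members and 59.3% of other genes from 2000 to under 4000 bases. At 4000 bases and over, the counts were 3 of 3 members and 21.3% of other genes, which is no comparison at similar length, as described above. These shares were not tested and hold for the scaling used here. The FPKM total of S8 was larger than that of T2, with 1.37e+10 against 1.14e+10. Against R1, the medians of the members in S8 and T2 were 0.20 and -0.16 as scaled here. At equal totals they were 0.09 and -0.03, and after quantile normalization -0.04 and -0.20. Cox8a, the ubiquitous isoform of subunit 8, was the only member called higher in S8 and lower in T2 against R1. It was at 884 and 876 in R1, 754 and 773 in 16-6, 838 and 791 in 32, 1113 in S8 and 735 in T2. Its differences were 0.34 ± 0.06 in S8 and -0.26 ± 0.06 in T2 (limma adjusted p = 0.00573 and 0.0174), and 0.825% of all genes had such a pair of calls. Called in the same direction in both lines were 10 members higher and 15 lower, beside 21.2% and 23.9% of all genes.

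Genes that act together with the complexes were counted from fixed lists. Of 30 assembly factors found, 4 were called higher and 7 lower in 16-6, 11 and 3 in 32, 16 and 2 in S8, and 12 and 8 in T2. The shares called in either direction were 36.7%, 46.7%, 60% and 66.7% in this order of lines, beside 55.6%, 61.5%, 66.7% and 57.9% of all tested genes. Past 2-fold were Sco2, a copper chaperone of complex IV (1.29 ± 0.05 in S8), Ecsit (1.08 ± 0.08 in S8), Sdhaf1 (1.08 ± 0.10 in S8) and Ndufaf2 (-1.05 ± 0.10 in T2). Ecsit and Ndufaf2 assist the assembly of complex I and Sdhaf1 that of complex II. Of the 18 genes of the citrate cycle, which supplies the chain with NADH and succinate, 5 were higher and 3 lower in 16-6, 14 and 1 in 32, 6 and 1 in S8, and 4 and 7 in T2, or 44.4%, 83.3%, 38.9% and 61.1% called. Of the 15 tested carriers and cofactors, 2 were higher and 5 lower in 16-6, 7 and 2 in 32, 5 and 3 in S8, and 4 and 5 in T2, where Ucp2, an uncoupling protein family member, fell by 1.07 ± 0.05, and the shares called were 46.7%, 60%, 53.3% and 60%. Among the 17 tested regulators of mitochondrial genes, 3 were higher and 6 lower in 16-6, 9 and 1 in 32, 8 and 3 in S8, and 7 and 2 in T2, or 52.9%, 58.8%, 64.7% and 52.9% called. Esrrb, a nuclear receptor that is also a pluripotency factor, was at 184 and 175 in R1, 172 and 178 in 32, 86.4 and 87.1 in 16-6, 60.2 in S8 and 53.4 in T2. Yy1 was at 33.6 and 41.2 in R1 and rose to 86.4 in S8 and 83.6 in T2 (1.19 ± 0.12 and 1.15 ± 0.12, limma adjusted p = 0.000823 and 0.00146).

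The ribosomal proteins, which are also short and abundant, were mostly higher than in R1 both in 32 and in S8 as scaled here. Of the 76 mitochondrial ribosomal proteins, 46 were called higher and 3 lower in 32, 56 and 4 in S8, 33 and 14 in T2, and 11 and 9 in 16-6. Of the 82 cytosolic ones, 52 were called higher in 32, 45 higher and 7 lower in S8, 22 and 19 in T2, and 10 and 4 in 16-6. In 16-6, 32, S8 and T2, the shares called were 26.3%, 64.5%, 78.9% and 61.8% of the mitochondrial and 17.1%, 63.4%, 63.4% and 50% of the cytosolic ones, to be read beside the same shares of all genes. Their medians in 32 were 0.27 and 0.35, against 0.22 for the ubiquitous subunits. In S8 these medians were 0.61 and 0.38, against 0.26 for the ubiquitous subunits. No row carried the name of a gene of the mitochondrial DNA, so that the subunits encoded there were not analysed here.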

How the data were processed

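Paired-end mRNA sequencing of 8 libraries was analysed from the processed files. The authors enriched polyadenylated RNA, mapped the reads with TopHat 2.0.4 to the UCSC genes of mm9, retained reads that aligned to 1 place, and ran Cufflinks for the FPKM they deposited, with lower and upper confidence limits. Its version is 2.0.0 in the submitters' processing notes. The paper's text gives a later version and names the unit RPKM. Neither the Cufflinks options nor the use of strand are given in the sources used here, and reads shared with processed pseudogenes or close paralogs may be lost from these genes. Library totals of these FPKM ran from 1.14e+10 to 1.60e+10, and all values were divided by 12725.7, which makes the median total 1000000. Start coordinates were counted from 0 in the files and are given from 1.

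Groups are the cell lines of the labels. The replicates are described as biological, and p-values measure the spread between these libraries only. The 13693 rows that reached a value of 1 somewhere were fitted on log2(value + 1) with limma 3.58.1 (lmFit, eBayes with trend, R 4.3.3) in 5 groups with Benjamini-Hochberg adjustment over all rows tested. S8 and T2, with 1 library each, are assumed to vary like the other lines. With 2 against 2 libraries the smallest exact permutation p is 0.333, so single genes were not tested that way. Fragments were estimated from the confidence limits as if these held counting error only. The estimate does not follow the level for every gene, as for Ndufv3 with 210 at a level of 216 in T2 and 869 at 317 in S8. Transcript lengths were those of the longest coding transcript of each gene name in the NCBIM37 annotation, for 94.7% of tested rows and all 85 members. The transcript in the cells can be shorter. Tables were made with scipy 1.17.1, numpy 2.4.6 and pandas 2.3.3 under Python 3.11.15, and figures with matplotlib 3.10.9.

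The members, isoform assignments, marker lists and related gene lists were chosen with earlier results of these data known. Named are all isoforms, the 4 Sdh genes, the highest and lowest gene of each complex, the 3 largest rises and 3 largest falls among called members per comparison, the 5 largest F values, and genes of the related lists past 2-fold. Alternatives were another pseudocount, other filters, quantile, median-of-ratios and equal-total scaling, removal of trends on length and on length and GC content (the latter chosen after seeing the data), eBayes without trend, fold minimums, ubiquitous subunits alone (chosen after seeing the data), a replicate block and omission of each replicate. Markers of blood, epidermis and stomach were also read, and none of the 4 blood markers reached 1, whereas 1 epidermal and 2 stomach markers did, with sums of at most 3.52 and 6.19.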

Additional observations from a re-analysis of the deposited data

Results flagged for a closer look

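The differences of 16-6 and 32 from R1 differed from each other for 42 members, by the direct test of 16-6 against 32 in limma (adjusted p below 0.05), beside 60.4% of all tested genes. Of these members, 40 were lower in 16-6, but at equal library totals 18 were higher and 4 lower. Cox7a1 differed most, by -1.42 on the log2 scale. Cox5a (-0.64) and Ndufb4 (-0.55) were called lower than R1 in 16-6 and higher than R1 in 32, as 4.04% of all tested genes were in these directions.

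Between iPSC lines, 15 members were called higher than R1 in 1 line and lower in another, beside 23.6% of all tested genes, and for pairs that include S8 or T2 the difference itself was not tested. No line had the 4 libraries needed to look for a library that stands apart.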

How the results depend on the processing

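Each result was recomputed with 1 choice changed at a time. Of 76 named differences with 1197 recomputed values, 1070 kept their direction and their call, 119 lost the call and 8 changed sign. The calls of Ndufa4l2, Cox4i2, Cox7a1 and Cox6b2 against R1 were kept under every alternative run for single genes, which left out the fold minimums. On the scale of the fit, Cox6b2 was 1.80-fold lower in 16-6, 1.45-fold in 32 and 1.69-fold in S8. Its calls in these lines miss the 2-fold minimum, and that in 32 also misses the 1.5-fold minimum. The sign changed at equal library totals between 16-6 and 32 for Cox6b2 (0.0194), Cox7b (0.0206), Sdha (0.13), Sdhb (0.10) and Sdhd (0.0659), in 32 against R1 for Cox7b (-0.0622 at equal totals and -0.0103 after quantile normalization), and in S8 against R1 for Sdha (-0.0689 after quantile normalization). The cause was not tested.

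Counts of called members moved by more than 1.5 times under a few settings. After quantile normalization, 20 members were called in 32 and 19 between 16-6 and 32, where equal totals gave 22. Of all tested genes, 57.3%, 62.0% and 53.4% were called in this order. With a 1.5-fold minimum, the counts were 6 in 16-6, 6 in 32, 31 in S8, 26 in T2, 7 in the mean of the iPSC lines and 3 between 16-6 and 32, and with a 2-fold minimum 3, 2, 6, 10, 3 and 1. Ubiquitous subunits alone gave 16 in 16-6. Leaving out each replicate in turn gave 10 to 26 in 16-6, 31 to 40 in 32, 42 to 52 in S8, 37 to 44 in T2, 30 to 46 in the mean of the iPSC lines (30 without replicate 1 of R1), 21 to 44 between 16-6 and 32 (21 without replicate 1 of 16-6 and 26 without replicate 1 of 32), and 62 to 70 members by the F test. A line left with 1 library was assumed to vary like the others. With the length trend removed, the balance in 16-6 was 15 higher and 12 lower.

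The replicate numbers were not shown to pair the libraries, since the correlations of the replicate differences between lines were -0.0969, 0.00102 and 0.0282. With the replicate number as a block, in the 6 libraries of R1, 16-6 and 32, 26 members were called in 16-6, 37 in 32 and 37 between 16-6 and 32, against 26, 39 and 42 without the block. Depth limits the 8 members that had fewer than 50 fragments in some library.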
